A study of Mus musculus with 6 samples.

Results

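The nuclear genes of respiratory complexes II to V were read in aortic RNA from a mouse model that loses serum response factor (Srf) in smooth muscle. They comprise the subunits of succinate dehydrogenase (complex II), cytochrome bc1 (complex III), cytochrome c oxidase (complex IV) and ATP synthase (complex V), with the carrier cytochrome c. Members were chosen by gene symbol, with earlier results of these data known. The symbols were Sdha to Sdhd, names beginning Uqcr, Cyc1, Cycs, names beginning Cox4 to Cox8, and names beginning Atp5. Cox7a1, Cox8b and 7 names ending in -ps, with or without a number, were left out. The rule gave 48 of the 55453 genes in the table. Of these, 41 are broadly used subunits: 4 of complex II, 9 of complex III, 1 cytochrome c, 10 of complex IV and 17 of complex V. The other members are 6 isoforms restricted to certain tissues and 1 supercomplex factor, Cox7a2l. A filter on low counts kept 45 of the 48, including all 41 broad subunits.

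Both groups of mice were hemizygous for Itga8-CreERT2, a tamoxifen-activated Cre recombinase driven from the integrin gene Itga8, which is active chiefly in smooth muscle. Both were given tamoxifen by intraperitoneal injection, 33 mg/kg daily for 5 days. The control mice were heterozygous for a floxed Srf allele, so their recombined cells can also lose a copy of Srf, and the experimental mice were homozygous for it. Aortae were collected 10 days after the last injection, were stripped of endothelium and adventitia, per the labels, and were frozen one by one. The mice's age is not given in the sources used here. Counts were analysed for 3 heterozygous libraries (replicates 1, 2 and 3) and 2 homozygous libraries (replicates 2 and 3). The labels also list a homozygous replicate 1, which was not analysed here. According to the series' design text, an outlier or sampling error led the submitters to drop 1 homozygous sample.

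As background, complexes II and III pass electrons from succinate and ubiquinone to cytochrome c. Complex IV hands them to oxygen, and complex V uses the resulting proton gradient to make ATP. Complex II is entirely nuclear, while complexes III, IV and V each join nuclear subunits with mitochondrially encoded ones. Brown fat, heart and oxidative skeletal muscle are rich in these complexes.

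Library totals ran from 26177821 to 34311855 counts. Levels are given as CPM, counts scaled to library size with TMM factors. Srf itself stood at 56.1, 64.4 and 68.3 CPM in controls and at 45.0 and 38.6 CPM in homozygotes (log2 fold change -0.59, SE 0.122, edgeR adjusted p = 0.115, DESeq2 adjusted p = 0.00373). The 10 smooth muscle markers, Acta2 and Myh11 among them, summed to between 26643 and 27913 CPM in heterozygous libraries. They summed to 16296 and 15832 CPM in homozygous ones, so the labelled tissue carried its defining markers in every library, at a lower level in homozygotes. All 10 were lower at an unadjusted p under 0.05, as were 1228 of the 18192 genes tested. All 10 were also lower with no overlap between groups, as were 3314 of the 18192. In bulk RNA, fewer cells of a type and less RNA per cell cannot be told apart.

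The subunits stood higher in the homozygous libraries as a body. The 41 broad subunits summed to 3671, 4694 and 3310 CPM in heterozygous replicates 1, 2 and 3 and to 5683 and 5672 CPM in homozygous replicates 2 and 3. Heterozygous replicate 2 was the highest control and replicate 3 the lowest, and both homozygous libraries lay above all controls. The ratio of the group means was 1.46, from 3892 ± 718 CPM (SD, n = 3) to 5678 ± 8.09 CPM (SD, n = 2). All 41 subunits had a positive log2 fold change (homozygous over heterozygous), from 0.04 to 0.92 with a median of 0.51, against a median of -0.02 over the 18192 genes tested.

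No single subunit passed edgeR's adjusted threshold of 0.05, and neither did any other gene (0 of 18192, 0%). The lowest edgeR adjusted p among the members was 0.121, for Cox5a. At an unadjusted p under 0.05, 35 of the 41 subunits were higher and 0 lower. Of all genes tested, 9.04% were higher and 1228 of 18192 lower. In 37 of the 41, both homozygous libraries lay above all heterozygous ones, which held for 17.4% of all genes tested. DESeq2 called 16 of the 41 higher at an adjusted p under 0.05, against 3.33% of the genes it tested. Over the 45 tested members, the edgeR count at an unadjusted p under 0.05 was 36. Leaving out heterozygous replicate 1 or homozygous replicate 2 lowered it to 22, and leaving out homozygous replicate 3 to 19. The share of all genes at an unadjusted p with a library left out was not counted. At an adjusted p under 0.05, edgeR called 13 members higher without heterozygous replicate 2 and 26 with no low-count filter. Over all genes, those settings called 139 and 982 higher. The number of genes tested differs by setting and was not counted for these, so no share is given.

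**Figure D1:**
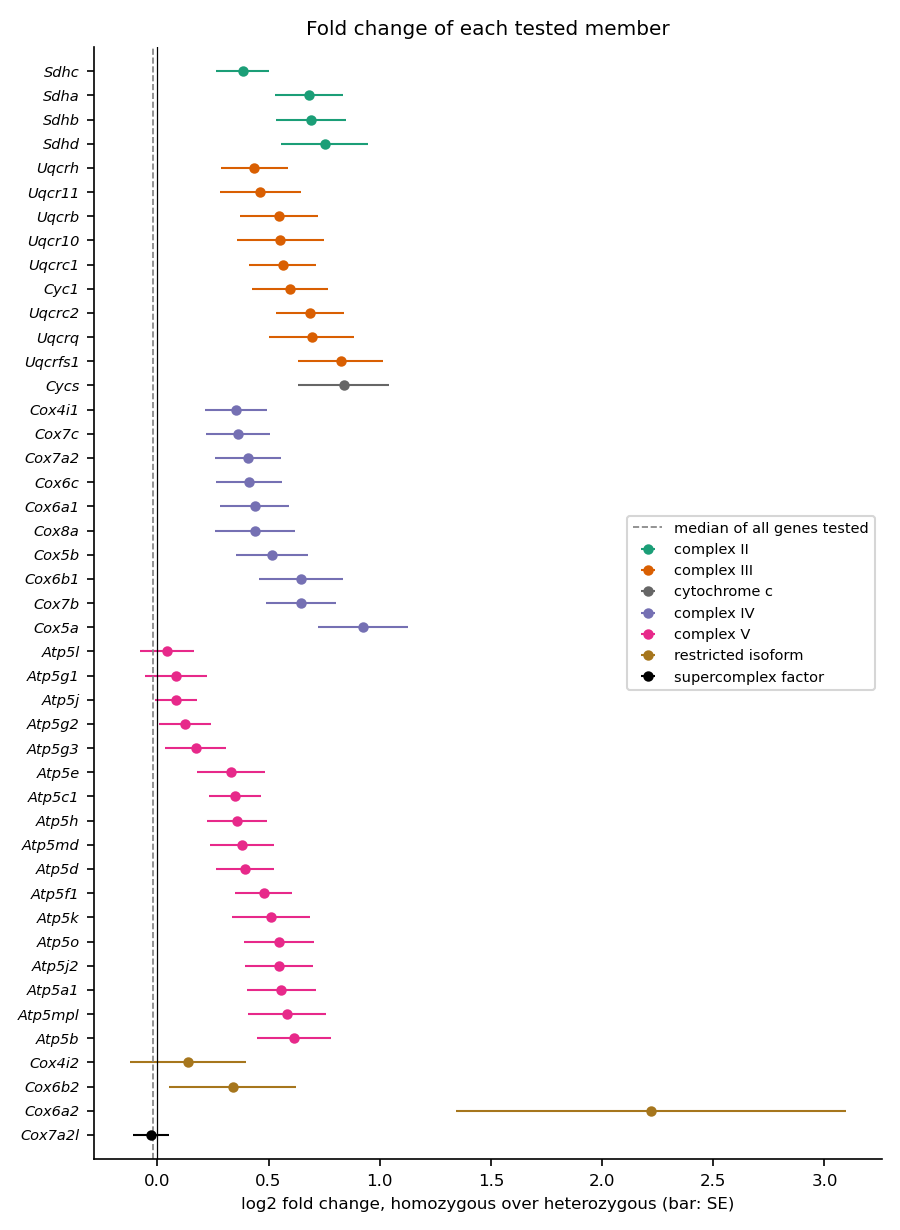
Log2 fold change, homozygous over heterozygous, with its SE (horizontal axis), for each of the 45 tested members (vertical axis), coloured by complex. All 41 broad subunits lie right of 0, from 0.04 for Atp5l to 0.92 for Cox5a, and Cox6a2 (2.22) has the widest error; the dashed line is the median of all genes tested.

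The medians were ordered II (0.69), III (0.56), IV (0.44) and V (0.38), and the differences between complexes were not tested. Complex II subunits together made 527 ± 98.9 CPM in controls (SD, n = 3), against 829 ± 5.94 CPM in homozygotes (SD, n = 2). Complex III went from 690.5 ± 144 to 1047 ± 6.52 CPM, complex IV from 764 ± 147 to 1073 ± 21.0 CPM and complex V from 1883 ± 322 to 2681 ± 22.4 CPM. In each complex the spread among controls was wider than that between the homozygous libraries. When the fit also held a term for label numbers (the numbers that end each sample's description), which leaves only homozygous replicate 2 against heterozygous replicate 3, the medians were 0.92, 0.85, 0.79 and 0.58.

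**Figure D2:**
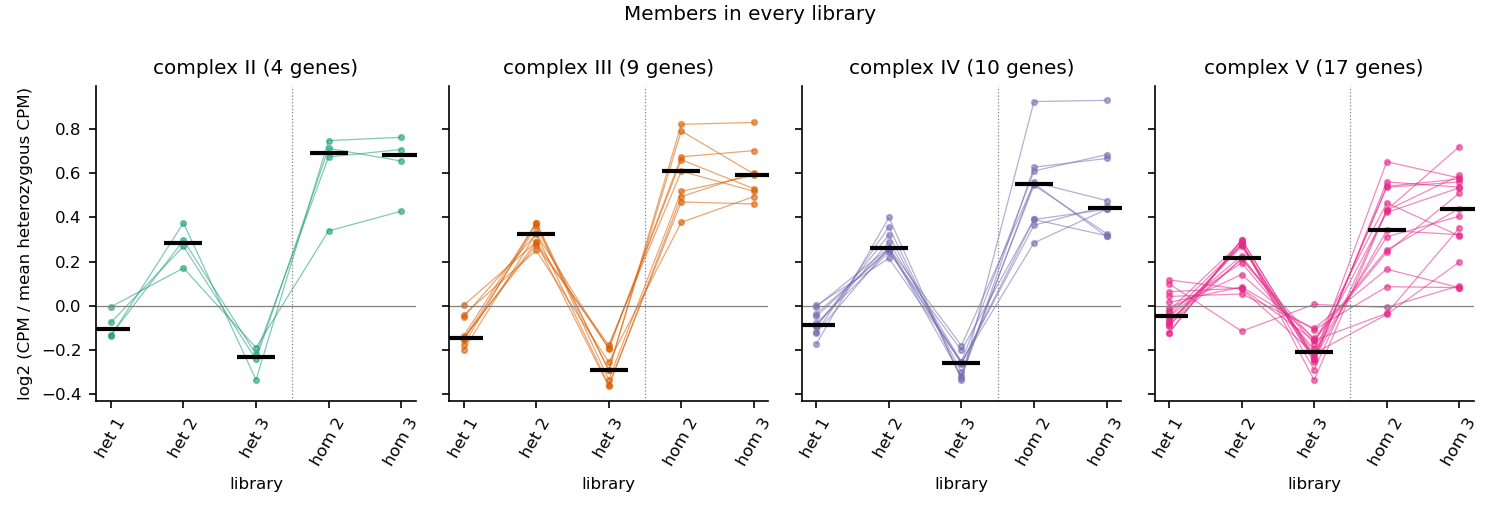
Log2 of each subunit's CPM over its mean in the heterozygous libraries (vertical axis), by library (horizontal axis), in 1 panel per complex; thin lines join the values of 1 gene and black bars are medians. Heterozygous replicate 2 is the highest control for 39 of the 41 subunits and replicate 3 the lowest of all libraries for 39. Of the 18192 genes tested, the same holds for 5707 and 4715.

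Succinate dehydrogenase has 4 subunits, and all were higher. Sdha (GRCm38 chromosome 13, 74322254 to 74350280), the flavoprotein that oxidises succinate, stood at 284, 360.0 and 253 CPM in heterozygous replicates 1, 2 and 3, against 489 and 470.2 CPM in homozygotes. The groups did not overlap, and the log2 fold change was 0.68 (SE 0.154, edgeR adjusted p = 0.126, DESeq2 adjusted p = 0.00389). Sdhb, the iron-sulfur subunit, was at 72.8, 97.9 and 68.5 CPM against 127 and 130.1 CPM, a difference of 0.69 on the log2 scale (SE 0.158). The membrane anchors Sdhd and Sdhc gave different sizes. Sdhd was at 63.6, 90.6 and 55.4 CPM against 117 and 118 CPM, a log2 difference of 0.75 (SE 0.196). Sdhc was at 78.8, 88.9 and 69.3 CPM against 99.9 and 106 CPM, a log2 difference of 0.38 (SE 0.121), and was the 1 subunit of complex II that DESeq2 did not call (adjusted p = 0.108).

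In complex III all 9 subunits were higher with no overlap between groups, and DESeq2 called 5: Uqcrc1, Uqcrc2, Cyc1, Uqcrq and Uqcrfs1. Of all genes tested, 17.4% were higher without overlap, and DESeq2 called 3.33% of those it tested higher. The largest log2 fold change of the complex belonged to Uqcrfs1, the Rieske iron-sulfur protein that passes electrons to cytochrome c1. It stood at 60.8, 89.2 and 56.2 CPM in controls, against 121 and 122 CPM in homozygotes, a log2 difference of 0.82 (SE 0.192, edgeR adjusted p = 0.131). Uqcrc1 (chromosome 9, 108936633 to 108949623) and Uqcrc2 encode the core proteins. Uqcrc1 was at 139, 185 and 135 CPM against 233 and 219 CPM (0.56, SE 0.150), and Uqcrc2 at 113, 154 and 110.1 CPM against 200.5 and 204 CPM (0.69, SE 0.154). Cyc1, cytochrome c1, was at 72.5, 104 and 72.8 CPM against 132 and 120.2 CPM, a log2 difference of 0.60 (SE 0.172). For all of these, both homozygous libraries were above the highest control, heterozygous replicate 2. The small subunits Uqcrq, Uqcr10, Uqcrb, Uqcr11 and the hinge protein Uqcrh ranged from 0.44 (Uqcrh) to 0.69 (Uqcrq).

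Cycs, the soluble cytochrome c that links complexes III and IV, stood at 23.3, 35.2 and 21.5 CPM against 45.7 and 49.9 CPM, with a log2 difference of 0.84 (SE 0.205). Of the 100-base words of its coding transcripts, 24.7% also occur in transcripts of other genes, as do 21.5% of those of Uqcrc2. How far shared sequence affects the level of either gene was not tested.

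The nuclear subunits of complex IV surround a catalytic core encoded in mitochondria. All 10 were higher with no overlap between groups, and DESeq2 called 3: Cox5a, Cox7b and Cox6b1. The shares over all genes tested were 17.4% for no overlap in that direction and 3.33% for DESeq2. Cox5a (chromosome 9, 57521274 to 57532426) had the largest log2 fold change of the 41 subunits. It stood at 41.1, 61.1 and 36.8 CPM in controls, against 87.8 and 88.2 CPM in homozygotes, a log2 difference of 0.92 (SE 0.204). Its neighbour in the complex, Cox5b, gave 0.52 (SE 0.161). Cox4i1, a subunit through which ATP inhibits the enzyme, was at 172, 215 and 158 CPM against 238 and 226 CPM. Its log2 fold change of 0.35 (SE 0.141) was the smallest of the 10. Cox6a1 was at 91.8, 119.7 and 88.2 CPM against 147 and 124 CPM (0.44, SE 0.154), and Cox6b1 at 72.1, 100.3 and 62.5 CPM against 121 and 124 CPM (0.65, SE 0.189). The remaining Cox6c, Cox7a2, Cox7b, Cox7c and Cox8a lay between 0.36 and 0.65. In Cox8a the margin between groups was narrow, with heterozygous replicate 2 at 84.8 CPM and homozygous replicate 3 at 85.1 CPM.

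In ATP synthase, 11 of the 17 subunits were higher at an unadjusted p under 0.05, against 9.04% of all genes tested. For 13 of the 17, both homozygous libraries lay above all controls, against 17.4% of all genes tested. Atp5b (chromosome 10, 128083273 to 128090391) and Atp5a1 encode the beta and alpha subunits of the catalytic head. Atp5b stood at 571, 765 and 528 CPM in controls, against 976 and 928 CPM in homozygotes (0.61, SE 0.166, edgeR adjusted p = 0.161, DESeq2 adjusted p = 0.0184). Atp5a1 was at 483, 613 and 429.8 CPM against 739 and 757 CPM (0.56, SE 0.155). Neither overlapped between groups. The central stalk genes had smaller log2 fold changes: Atp5c1 (gamma) gave 0.35 (SE 0.117), Atp5d (delta) 0.39 (SE 0.131) and Atp5e (epsilon) 0.33 (SE 0.153). In the peripheral stalk, Atp5o, Atp5f1 and Atp5h gave 0.55, 0.48 and 0.36. DESeq2 called Atp5a1, Atp5b, Atp5f1 and Atp5j2.

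The 6 complex V genes that did not reach an unadjusted p under 0.05 were Atp5l, Atp5g1, Atp5j, Atp5g2, Atp5g3 and Atp5e. Of these, Atp5e (0.33, SE 0.153) and Atp5g2 had both homozygous libraries above all controls. Atp5g1, Atp5g2 and Atp5g3 encode the same mature protein, subunit c, whose ring turns with proton flow. Atp5g3 stood at 63.7, 64.4 and 54.7 CPM in controls, against 59.5 and 77.7 CPM in homozygotes (0.17, SE 0.138). Homozygous replicate 2 was below heterozygous replicates 1 and 2, so the groups overlapped. Atp5g1 was at 19.9, 19.4 and 15.8 CPM against 17.9 and 21.1 CPM (0.08, SE 0.139), and Atp5g2 at 11.7, 11.7 and 10.5 CPM against 12.7 and 11.98 CPM (0.12, SE 0.117). Together the subunit c genes summed to 95.3, 95.5 and 81.1 CPM against 90.1 and 110.8 CPM. Per length of annotated exons, which includes minor transcripts, Atp5g3 made up 70.9% to 75.7% of the set in the 5 libraries. Without homozygous replicate 3 the log2 fold changes of Atp5g1 and Atp5g3 were negative, at -0.039 and -0.033.

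Atp5j, a peripheral stalk subunit, was at 46.1, 48.4 and 42.3 CPM against 48.4 and 48.3 CPM (0.08, SE 0.0928). Atp5l, the g subunit of the membrane part, was at 12.5, 10.8 and 11.7 CPM against 11.6 and 12.4 CPM (0.04, SE 0.122), and its sign turned in 2 of the alternatives given in the closing section. In both genes the groups overlapped. The level of Atp5l is uncertain, since 69.0% of its coding 100-base words occur in other genes. The share was 34.7% for Atp5g2, 5.94% for Atp5g1, 2.07% for Atp5j and 0% for Atp5g3. Of the 39 broad subunits matched to a single gene model, 12 were above 5%, Cox5a (13.6%) and Atp5h (21.7%) among them. Exons of 10 subunits overlap a gene on the opposite strand, such as Atp5j with Gabpa, and the strand setting of the counting is not given. The part of shared sequence in these values was not tested.

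Subunit genes share promoter elements in many tissues: NRF1 and the ETS factor GABP bind a number of them, and estrogen-related receptors (ERR) act with the coactivator PGC-1. RefSeq promoters (GRCm38.p6, 250 bases before to 50 after the start) were matched for 29 of the 41 subunits and searched on both strands. The NRF1 core CGCATGCG was in 7 of the 29 (24.1%), against 1.87% of the 32851 promoters in the table. The ETS letters CCGGAAGT were in 4 (13.8%, against 3.89%), the ERR letters TCAAGGTCA in 2 (6.90%, against 0.423%) and the YY1 letters AAGATGGC in 2 (6.90%, against 2.75%). The CArG box, the element that Srf binds, was in 0 of the 29 windows and in 1.63% of all. These shares only describe the letters present. The promoters below, each the 150 bases before the start on the gene's strand, were picked after their values were seen, to set subunits with large fold changes (Cycs, Cox5a and Uqcrfs1) beside those near the controls (Atp5g2 and Atp5g3) and an ETS match in between (Uqcrh). Capitals mark a match. Cycs (chr6:50566570-50566719, minus strand) and Atp5g2 (chr15:102671048-102671197, minus strand) hold the NRF1 core beginning 61 and 41 bases before the start. Uqcrh (chr4:116075071-116075220, minus strand) holds the ETS letters on the opposite strand, beginning 11 bases before it, and Atp5g3 (chr2:73911327-73911476, minus strand) the ERR letters, also on the opposite strand, beginning 52 bases before it. Cox5a (chr9:57521082-57521231, plus strand) and Uqcrfs1 (chr13:30545317-30545466, minus strand), the largest fold changes of complexes IV and III, hold no match to any motif searched.
Cycs: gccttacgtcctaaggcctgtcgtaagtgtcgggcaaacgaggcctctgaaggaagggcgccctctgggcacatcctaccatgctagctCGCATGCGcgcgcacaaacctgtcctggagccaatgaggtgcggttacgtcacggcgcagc
Atp5g2: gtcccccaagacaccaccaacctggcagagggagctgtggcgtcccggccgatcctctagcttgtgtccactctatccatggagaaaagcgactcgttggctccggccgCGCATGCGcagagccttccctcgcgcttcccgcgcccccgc
Uqcrh: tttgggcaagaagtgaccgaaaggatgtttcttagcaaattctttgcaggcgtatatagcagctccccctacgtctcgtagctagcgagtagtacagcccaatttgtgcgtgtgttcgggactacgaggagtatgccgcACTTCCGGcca
Atp5g3: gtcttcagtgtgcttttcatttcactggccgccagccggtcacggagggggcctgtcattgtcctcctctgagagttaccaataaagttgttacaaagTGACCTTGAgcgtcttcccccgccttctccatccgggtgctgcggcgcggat
Cox5a: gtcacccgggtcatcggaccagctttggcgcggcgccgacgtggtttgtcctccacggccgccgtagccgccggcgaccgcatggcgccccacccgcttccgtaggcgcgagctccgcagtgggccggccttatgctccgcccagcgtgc
Uqcrfs1: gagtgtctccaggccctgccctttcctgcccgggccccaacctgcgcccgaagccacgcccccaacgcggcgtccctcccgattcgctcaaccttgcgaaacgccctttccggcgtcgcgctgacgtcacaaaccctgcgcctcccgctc

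Median log2 fold changes were set side by side for subunits with and without each motif. The 7 subunits with the NRF1 core had a median of 0.46, from 0.04 (Atp5l) to 0.84 (Cycs), and the other 22 a median of 0.53, from 0.08 to 0.92. The 4 with the ETS letters had a median of 0.44 against 0.55 in the other 25. The 2 with the ERR letters had a median of 0.46, and the 2 with the YY1 letters 0.51, each against 0.51 in the other 27. The 15 subunits with no match had a median of 0.55. Cycs and Atp5g2, which share the core, gave 0.84 and 0.12. These medians were not tested.

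Tissue-restricted isoforms were at or below 5.06 CPM, except Cox6a2 in homozygous replicate 3 (14.8 CPM), and Cox6a2 varied most. Cox6a2 (chromosome 7, 128205435 to 128206387), the heart and skeletal muscle form of Cox6a, stood at 4.31, 1.84 and 0.119 CPM in controls, against 5.06 and 14.8 CPM in homozygotes. Its log2 fold change was 2.22 (SE 0.878, edgeR adjusted p = 0.286, DESeq2 adjusted p = 0.519), and it ranged from 1.25 without homozygous replicate 3 to 5.36 with the term for label numbers. The libraries fell in the same order by Cox6a2 as by the summed skeletal muscle markers, which stood at 662, 319.9 and 10.9 CPM in heterozygous replicates 1, 2 and 3 and at 983 and 2673 CPM in homozygous replicates 2 and 3. All 12 of those markers were tested and 7 were higher at an unadjusted p under 0.05, as were 9.04% of all genes tested. Myh1, a fast myosin heavy chain, ran from 0.318 to 496 CPM. Their part in the Cox6a2 values was not tested.

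Per length, Cox6a2 made up 4.62%, 1.56% and 0.139% of the Cox6a pair in the heterozygous and 3.44% and 11.0% in the homozygous libraries. Cox4i2, a form known from lung and induced by low oxygen, stood between 0.890 and 1.06 CPM, and Cox6b2, a testis form, between 1.10 and 1.91 CPM. Cox4i2 made up at most 1.13% of the Cox4i pair and Cox6b2 at most 1.40% of the Cox6b pair. Cox7b2 and Cox6c2, the latter annotated as a processed pseudogene, had at most 1 and 3 counts in any library, and Cox8c had 0 in all 5.

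Cox7a2l, which promotes the joining of complexes III and IV, was level across groups. It stood at 48.8, 47.6 and 46.3 CPM in controls, against 47.0 and 46.2 CPM in homozygotes, a log2 difference of -0.03 (SE 0.0824).

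The summed subunits and the summed brown adipocyte markers put the 5 libraries in the same order. The subunit sums of homozygous replicates 2 and 3 were nearly level, at 5683 and 5672 CPM. Complexes II, III and IV were higher in replicate 2 of these. Complex V (2665 and 2696 CPM) and cytochrome c were higher in replicate 3. The 8 brown adipocyte markers, Ucp1 and Cidea among them, summed to 342, 666 and 260.4 CPM in heterozygous replicates 1, 2 and 3 and to 1041 and 970.1 CPM in homozygous replicates 2 and 3. Among the controls alone, the order 3, 1, 2 from low to high was found in 38 of the 41 subunits and in 3675 of the 18192 genes tested. Ucp1, the uncoupling protein that defines brown fat, stood at 152, 337 and 87.5 CPM against 582 and 569 CPM. Of the 8 markers, 6 were higher at an unadjusted p under 0.05, Zic1 had at most 4 counts in any library, and Lhx8 was between 0.239 and 0.593 CPM. General adipocyte markers summed to 2627, 4016 and 2745 CPM in the heterozygous and 5182 and 5326 CPM in the homozygous libraries. Of these, 10 of 12 were higher at an unadjusted p under 0.05. Of all genes tested, 9.04% were higher at that threshold.

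Cox7a1 and Cox8b, forms of muscle and brown fat outside the rule, were higher in the same libraries. Cox7a1 was at 13.2, 24.1 and 12.1 CPM against 43.4 and 40.7 CPM, and Cox8b at 32.1, 60.3 and 27.6 CPM against 92.5 and 71.6 CPM. The part of fat and skeletal muscle RNA in the subunit values was not tested, and genotype and the amount of these tissues cannot be told apart with these libraries.

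**Figure D3:**
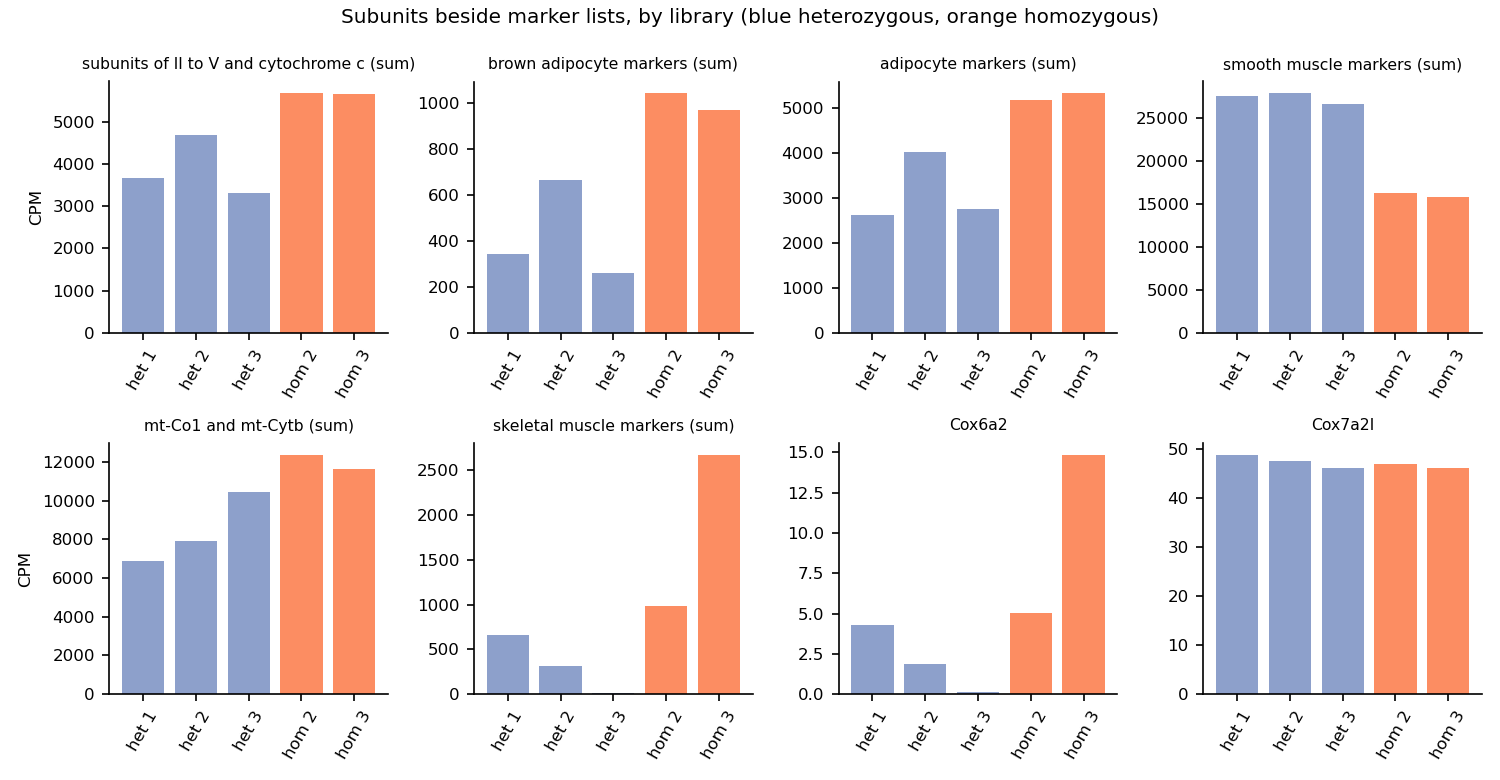
CPM by library (vertical axis, each panel with its own scale from 0) of the summed subunits, of summed marker lists, of mt-Co1 with mt-Cytb, and of Cox6a2 and Cox7a2l; blue bars are heterozygous and orange bars homozygous libraries. The subunit and brown adipocyte panels share the order of libraries, though the homozygous subunit sums are nearly level (5683 and 5672 CPM). Cox6a2 shares the order of skeletal muscle markers, and Cox7a2l is level between 46.2 and 48.8 CPM.

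The remaining marker lists gave the following sums. All 8 macrophage markers were higher at an unadjusted p under 0.05, against 9.04% of all genes tested. Their sum was 297, 256 and 340.4 CPM against 408 and 544 CPM. Cardiomyocyte markers were low, from 23.0 to 80.7 CPM in sum, and overlapped between groups. Adventitial fibroblast markers summed to between 3760 and 5759 CPM in the heterozygous libraries and to 5381 and 5542 CPM in the homozygous ones, and Schwann cell markers to between 156 and 211 CPM and to 206 and 203 CPM. Endothelial markers put the controls in the order of the subunits, at 792, 1016 and 769 CPM, but stood at 1160 and 419 CPM in homozygous replicates 2 and 3. Erythrocyte markers summed to 37.9, 297 and 87.6 CPM in controls, against 23.9 and 28.9 CPM in homozygotes. Heterozygous replicate 2 stood apart and replicate 1 was close to the homozygotes. All 5 markers were lower at an unadjusted p under 0.05 (median log2 fold change -2.53), as were 1228 of the 18192 genes tested. For 4 of the 5, both homozygous libraries lay below all controls, which held for 3314 of the 18192. DESeq2 called 0 of the 5 lower at an adjusted p under 0.05.

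The mitochondrially encoded partners of these complexes could be read only in part. Cytochrome b of complex III, mt-Cytb, stood at 1164, 1399 and 1890 CPM in controls, against 2391 and 2073 CPM in homozygotes (0.59, SE 0.203, edgeR adjusted p = 0.238). The complex IV core subunit mt-Co1 stood at 5702, 6525 and 8566 CPM against 9976 and 9548 CPM (0.49, SE 0.185). Neither overlapped between groups, yet among controls replicate 3 was highest, where it was lowest for the nuclear subunits. The other partners, mt-Co2, mt-Co3, mt-Atp6 and mt-Atp8, are listed with 0 or 1 count in every library. Every cell uses these genes, so they are given only as listed at 0 or 1.

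Assembly factors, which build the complexes and are not part of them, had smaller medians than the subunits. Of the 37 tested, 7 were higher and 0 lower at an unadjusted p under 0.05. Over all genes tested, 9.04% were higher and 1228 of 18192 lower. The medians of the factors were 0.17 for complex II, 0.19 for III, 0.22 for IV and 0.31 for V. Uqcc1, a complex III factor, gave 0.41 (SE 0.120). In complex IV, Coa5 gave 0.51 (SE 0.139), Taco1, the translational activator of mt-Co1, 0.68 (SE 0.217), Coa7 0.38 (SE 0.128) and Sco1, a copper chaperone, 0.36 (SE 0.116). Surf1, a complex IV factor, stood at 30.9, 28.8 and 25.3 CPM against 25.4 and 27.9 CPM (-0.09, SE 0.116). The ATP synthase factors Atpaf2 and Tmem70 gave 0.46 (SE 0.130) and 0.34 (SE 0.140). The difference between subunits and factors was not tested.

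**Figure D4:**
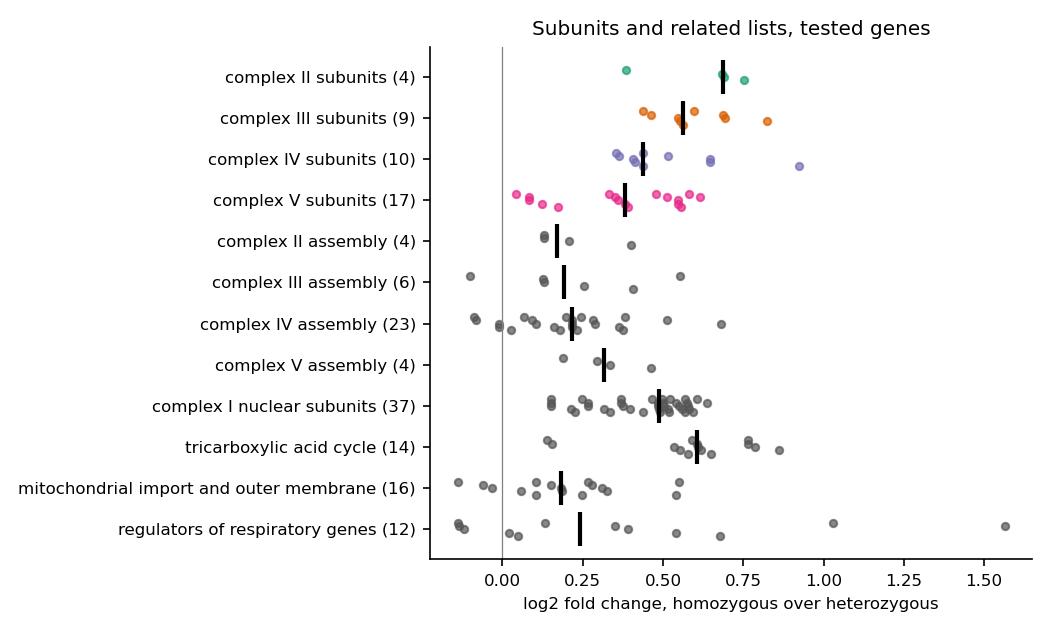
Log2 fold change, homozygous over heterozygous (horizontal axis), of each tested gene (points) in the subunits of complexes II to V and in related lists, with the number tested in brackets; black bars are medians. Medians run from 0.38 to 0.69 for the 4 complexes and from 0.17 to 0.31 for their assembly factors.

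Lists of neighbouring systems and regulators are given for comparison. Over all genes tested, 9.04% were higher and 1228 of 18192 lower at an unadjusted p under 0.05. Nuclear subunits of complex I had a median log2 fold change of 0.49, with 27 of 37 higher and 0 lower at an unadjusted p under 0.05. Enzymes of the tricarboxylic acid cycle, listed without Sdha to Sdhd, had a median of 0.61, with 12 of 14 higher and 0 lower. Genes of mitochondrial import and the outer membrane had a median of 0.18, with 6 of 16 higher and 0 lower. Among 12 regulators of respiratory genes the median was 0.24, with 6 higher and 0 lower. Esrrg, an estrogen-related receptor of oxidative tissues, stood at 2.98, 3.00 and 2.51 CPM in controls, against 5.87 and 5.71 CPM in homozygotes (1.03, SE 0.174, edgeR adjusted p = 0.104). Esrra gave 0.39 (SE 0.0935), Ppargc1b 0.68 (SE 0.175) and Ppargc1a, whose groups overlapped, 0.54 (SE 0.201). Of the other factors whose letters were searched in the promoters, Nrf1 gave -0.13 (SE 0.113), Gabpa 0.05 (SE 0.108) and Yy1 -0.12 (SE 0.0864).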

How the data were processed

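The authors deposited raw whole-number counts per gene. The tools named in the submitters' processing notes are featureCounts from Subread 1.6.4, STAR 2.7.0f and fastp 0.20.0, with the build GRCm38; the library kit was stranded, per the labels. Which annotation was counted, and whether by strand, is not given in the sources used here. Genes were filtered with filterByExpr, scaled by TMM and tested in R 4.3.3 with edgeR 4.0.16 (quasi-likelihood F test, group as the sole term), with Benjamini-Hochberg adjustment over 18192 genes. SEs were derived from the F statistics. The p-values measure the spread between these 5 aortae, and no libraries of a group agreed within sampling noise. Members and lists were chosen with earlier results of these data known. By rule, the genes described singly were the Sdh subunits, Cyc1, Cycs, Uqcrc1, Cox5a, in each of complexes III to V the 3 highest by mean CPM and those with the largest and smallest log2 fold change, the isoform sets and Srf; others were chosen after their values were seen. Alternatives were RLE and upper-quartile scaling, DESeq2 1.42.0, limma-voom (limma 3.58.1), no low-count filter, a mean CPM of at least 10, a replicate block, a label-number term (samples whose description numbers lie within 10 of each other form a block), omission of mt- genes and each library left out. Gene models and shared words came from GENCODE M21, where 46 of 48 members matched a single gene. The edgeR step was tested on simulated counts drawn gene by gene. That test does not show its power or error for members that move together.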

Additional observations from a re-analysis of the deposited data

How the results depend on the processing

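The 5 median log2 fold changes (complexes II to V and all subunits) stayed positive under all 14 alternatives, and the median of all genes moved by at most 0.029. They moved by more than the spread between libraries only with the term for label numbers, to 0.92 (II), 0.85 (III), 0.79 (IV), 0.58 (V) and 0.77 (all subunits). Genes called at an adjusted p under 0.05, 0 higher and 0 lower in edgeR, numbered 524 and 411 with DESeq2, 982 and 432 with no low-count filter, 8 and 1 with that term, 3 and 2 with the replicate block, and 0 and 1 with limma-voom. Members called higher were 16 with DESeq2 and 26 with no filter. DESeq2 called 3.33% of the genes it tested higher, and that share was not counted with no filter. With 1 library left out, called genes ranged from 0 to 139 higher and from 0 to 9 lower, with both highest counts without heterozygous replicate 2. Members called higher ranged from 0 to 13, and members higher at an unadjusted p under 0.05 from 19 to 36. A single homozygous library is then assumed to vary like the controls. Atp5l turned to -0.013 with the term for label numbers. With 1 library left out it ranged from -0.0051 to 0.098, Atp5g1 from -0.039 to 0.19, Atp5g3 from -0.033 to 0.35 (each lowest without homozygous replicate 3) and Cox6b2 from -0.0099 (without homozygous replicate 2) to 0.63. The causes were not tested. The labels do not say that the replicate numbers pair the samples. Over genes, the deviations of same-numbered libraries correlated at -0.0099 and -0.194. With 2 homozygous libraries, each value is that of the other-numbered library with its sign turned. It therefore cannot show whether the numbers pair the samples. With the replicate block, 31 members were higher at an unadjusted p under 0.05. The share of all genes at that threshold was not counted for this fit or with a library left out. With 3 against 2 libraries and a biological coefficient of variation of 15.8%, differences the size of those in Atp5l or Atp5g1 were not detectable. The limit was not confined to small differences. Cox5a, with the largest log2 fold change of the broad subunits (0.92), had an edgeR adjusted p of 0.121 with all libraries and the low-count filter.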
